A study of Homo sapiens with 4 samples.

Results

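The 55 genes described here act in G2 and mitosis: the kinase CDK1 with its cyclins, the kinetochore, the spindle checkpoint, the mitotic kinases, the spindle and the machinery of cytokinesis. Membership was set by a list of symbols, drawn up with earlier results of these data known and with no threshold on a measured value, and all 55 were found once among the 37468 features counted. The cells were MSTO-211H, a human pleural mesothelioma line labelled wild type, grown in suspension without serum. Each of 4 groups was 1 single-cell 3′ RNA library: Control (vehicle, not irradiated), Radiation (4 Gy), Drug (10 µM QTP) and Drug_Radiation (10 µM QTP the day before 4 Gy). All were collected 48 h after the time of irradiation. As cells were pooled into 1 library per group, no difference below has a replicate check and no p-value is given. The intervals are at 95% and cover counting error only.

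The libraries differed in depth. After filtering they held 3183, 2425, 3802 and 6990 cells in the order Control, Radiation, Drug, Drug_Radiation, with medians of 2318, 5299, 20405 and 18024.5 UMIs per cell. No cell barcode was shared between libraries. The mesothelial marker list was carried by VIM (2816 to 4661 CPM), KRT8 and KRT18, with CALB2 at 27.6 to 49.2 CPM. Of its 9 genes 6, MSLN and WT1 among them, reached 1 CPM in every library. Only 5 of the 9 had a mean of at least 2 CPM, so MSLN and WT1 were not both at that level. KRT19, UPK3B and PDPN stayed under 1 CPM in every library. Of 5 leukocyte markers 4 (PTPRC, CD3E, CD14 and LYZ) were under 1 CPM in every library, as were all 4 endothelial markers. CD68, which many cell types express, was at 16.2 CPM in Control and at 39.3 to 41.4 CPM in the other libraries.

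Cells enter mitosis when CDK1 bound to cyclin B becomes active, which CDC25 phosphatases promote. The spindle checkpoint then holds back the anaphase-promoting complex until every kinetochore is attached, after which securin and cyclin B are destroyed and the cell divides. Many of these genes are transcribed mainly in G2 and mitosis, from promoters in which a CHR element and CCAAT boxes recruit the MuvB complex with B-MYB and FOXM1, and NF-Y. DNA damage can hold cells before mitosis and, through p53 and p21, lower the transcription of many of them.

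The letters of these elements were frequent around the starts of the members. In some, such as NUF2, CENPF and CENPW, CHR letters were found only after the start. RefSeq promoter windows, from 250 bases before to 50 after each start (GRCh38.p14), were at hand for 45 of the 55 members. CHR letters (TTTGAA or TTCGAA, either strand) were in the windows of 36 of these 45 (80.0%), against 19.5% of all 27305 genes with a window and 15.3% of 9485 other genes with a mean of at least 2 CPM here. CCAAT letters were in 37 members (82.2%), against 39.7% of all genes. Both were in 32 members (71.1%), against 7.85%. Letters of an E2F type (GGCGGGAA or TTTGGCGC) were in 5 members (11.1%), against 4.55%. In 13 members (28.9%) a CCAAT began 20 to 40 bases before a CHR upstream of the start, against 0.787% of all genes; this distance was chosen after the matches had been seen. A gene with several windows counted as holding a match if any window did, and a CHR and a CCAAT may overlap by a base.

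Stretches before the start are shown for 6 members, so that the arrangement can be read directly. KIF11 and CKS2 have a CCAAT upstream of a CHR, MKI67 has 2 CHR with a CCAAT on either side, and CENPW, KIF2C and TACC3 have no match in the stretch. Capitals mark CHR and CCAAT letters on either strand (TTCAAA and ATTGG are the reverse forms). Positions are GRCh38.p14, and each stretch is read 5′ to 3′ on the strand of its gene.
KIF11, a motor that pushes spindle poles apart (chr10:92593020-92593129, plus strand): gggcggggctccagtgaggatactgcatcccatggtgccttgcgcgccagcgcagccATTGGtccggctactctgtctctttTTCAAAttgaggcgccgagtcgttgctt
CKS2, a subunit of CDK complexes (chr9:89311085-89311194, plus strand): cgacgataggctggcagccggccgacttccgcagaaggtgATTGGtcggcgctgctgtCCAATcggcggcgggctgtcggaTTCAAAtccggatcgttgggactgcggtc
MKI67, the proliferation marker Ki-67 (chr10:128126424-128126533, minus strand): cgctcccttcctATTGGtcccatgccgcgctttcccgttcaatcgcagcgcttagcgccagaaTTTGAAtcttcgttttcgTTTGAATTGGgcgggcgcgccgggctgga
CENPW, a centromere protein (chr6:126340005-126340114, plus strand): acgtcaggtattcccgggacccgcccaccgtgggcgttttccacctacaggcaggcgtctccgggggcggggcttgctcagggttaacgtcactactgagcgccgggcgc
KIF2C, a kinesin that shortens microtubules at kinetochores (chr1:44739727-44739817, plus strand): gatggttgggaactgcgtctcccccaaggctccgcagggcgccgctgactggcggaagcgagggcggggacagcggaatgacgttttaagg
TACC3, a spindle protein (chr4:1720521-1720630, plus strand): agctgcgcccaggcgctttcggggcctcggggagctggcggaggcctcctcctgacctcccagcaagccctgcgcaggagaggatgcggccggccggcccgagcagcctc
The KIF11 CHR begins 28 bases before the start and its CCAAT 53 before. In CKS2 they begin 29, 52 and 70 bases before the start. In MKI67 the CHR letters begin 47 and 29 bases before it. CENPW has CCAAT letters further upstream in its window and CHR letters beginning 17 bases after the start, and is counted among the 36 members with CHR, whereas KIF2C and TACC3 have neither motif in theirs.

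**Figure D1:**
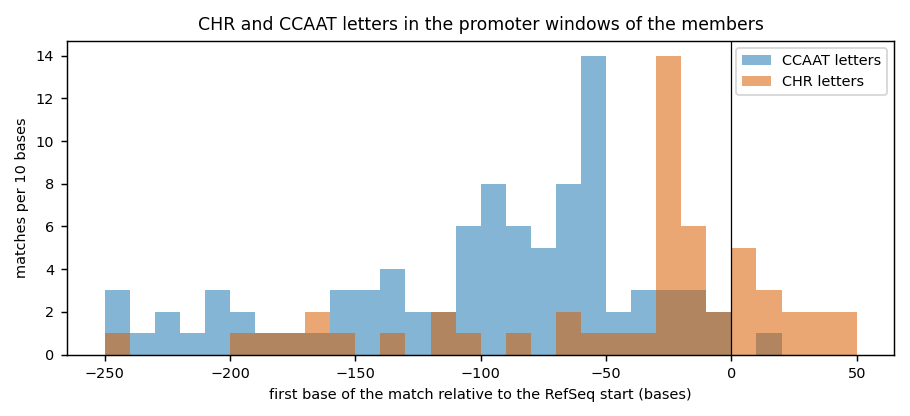
Number of CHR (orange) and CCAAT (blue) matches per 10 bases in the promoter windows of the 45 members that have one, by distance of the match's first base from the RefSeq start. CHR matches crowd just before the start and CCAAT matches further upstream.

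Levels are given as CPM, the UMIs of a gene scaled to 1e6 nuclear-encoded UMIs of a library. Together the 55 genes summed to 1859 CPM in Control (interval 1831 to 1888), 1342 in Radiation (1323 to 1361), 2011 in Drug (2002 to 2021) and 1215 in Drug_Radiation (1210 to 1221). Both irradiated libraries were thus below both others, and Drug_Radiation was lowest. CKS2, UBE2C, HMGB2, CKS1B and BUB3 held 41.9%, 43.5%, 38.6% and 42.7% of these UMIs. In bulk sums such as these, fewer cells in G2 and mitosis and less RNA per such cell cannot be told apart.

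**Figure D2:**
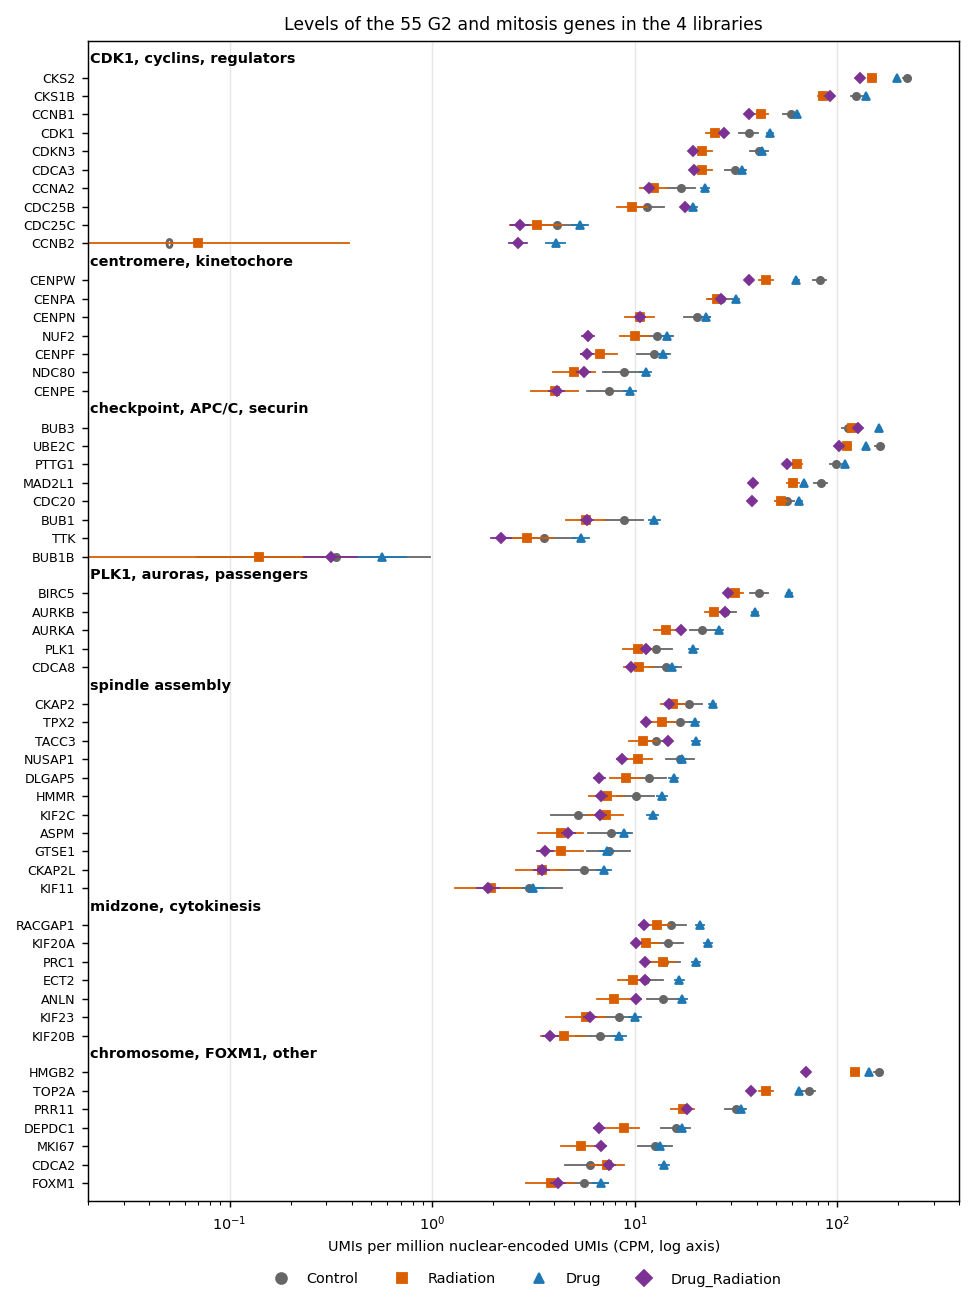
CPM of each of the 55 genes in the 4 libraries on a log axis, with exact 95% Poisson intervals, by role. A symbol 0 marks a gene with no UMI. For most genes Drug and Control lie to the right of Radiation and Drug_Radiation, and CCNB2 and BUB1B are near 0 in some or all libraries.

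Radiation without QTP came with lower levels of most members. Differences are log2 ratios of CPM plus 1, taken relative to the median of all genes that reached 20 CPM in either library, which was 0.18 for Radiation against Control. Of the 20 members at that level, 14 were at least 1.5-fold lower, where 6.85% of all 4818 genes were, and 4 (CDKN3, CENPN, CENPW and PRR11) were at least 2-fold lower, where 1.62% were. A member could enter this count through 1 library alone, so the count was repeated for the 53 members with a mean of at least 2 CPM over the 4 libraries (all but CCNB2 and BUB1B), each relative to the median of the 12108 genes at that level. The ratios printed for single genes keep the median of genes at 20 CPM, so a gene near 1.5-fold can be counted by one median and not by the other. Over the 53, 24 were at least 1.5-fold lower (6.08% of all genes) and 0 higher (7.24%), with a median of -0.54.

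Radiation with QTP gave the same direction. In Drug_Radiation against Drug the median of all genes was -0.18, and 13 of 26 members were at least 1.5-fold lower, where 0.557% of 5570 genes were. None was 2-fold lower, nor was any other gene (0.0%). Over the 53 members, 37 were at least 1.5-fold lower (0.851% of all genes) and 0 higher (1.48%), with a median of -0.65. These libraries are not used in Radiation against Control. In both comparisons 19 of the 53 were at least 1.5-fold lower, of 33 such genes among all 12108 (0.273%), and 50 were below the median of all genes (22.6%). The 19 were ASPM, BUB1, CDCA3, CDK1, CDKN3, CENPE, CENPF, CENPN, CENPW, CKAP2L, DEPDC1, GTSE1, KIF20B, MKI67, NDC80, NUSAP1, PRR11, PTTG1 and TOP2A. With QTP, CDK1, CDCA3 and CENPW pass 1.5-fold relative to the 12108 genes but not relative to those at 20 CPM. Across the 53 members, which share libraries within a comparison, the ratios of both arms had Pearson's r of 0.377 and Spearman's rho of 0.362.

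**Figure D3:**
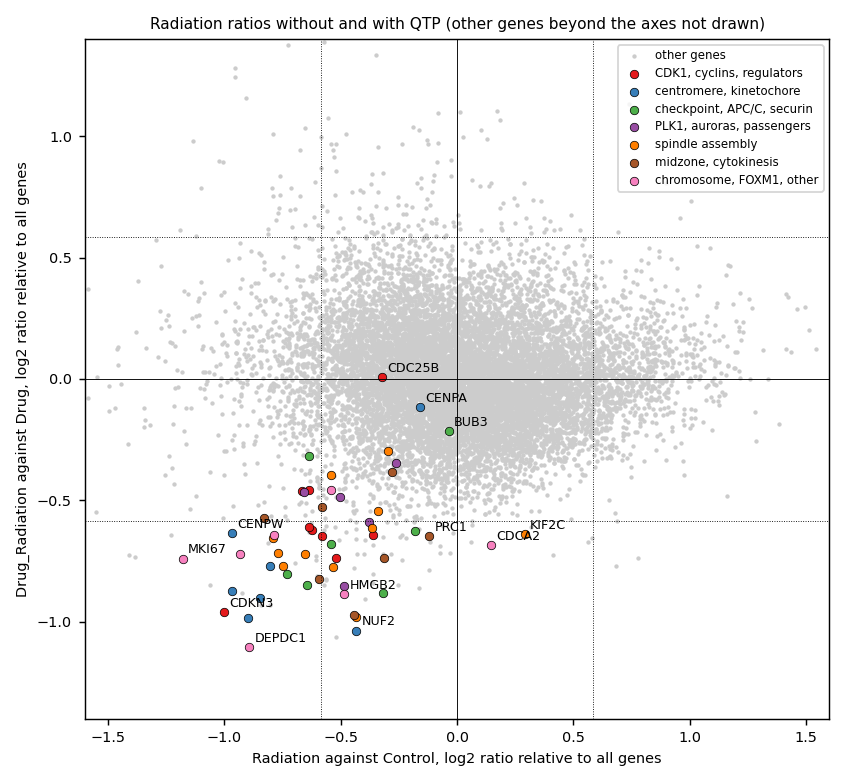
Radiation log2 ratios relative to all genes without QTP (x) and with QTP (y) for the 53 members with a mean of at least 2 CPM, coloured by role, and other genes in grey; dotted lines mark 1.5-fold. Of these members 50 lie at the lower left, and KIF2C and CDCA2 lie to the right of the vertical line.

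Among CDK1, the cyclins and their regulators, CDKN3, a phosphatase that acts on CDKs, had the lowest ratio of members past 20 CPM. Its level was 41.2 CPM in Control and 42.5 in Drug, against 21.6 in Radiation and 19.4 in Drug_Radiation, so both irradiated libraries were below both others. The relative log2 ratio was -1.09 (-1.34 to -0.90) without and -0.91 (-1.02 to -0.88) with QTP. CDK1 itself was at 36.5, 24.8, 46.5 and 27.4 CPM in the same order, with ratios of -0.72 and -0.56. CCNB1, cyclin B1, was at 58.8, 41.8, 63.2 and 36.4 CPM, with ratios of -0.66 and -0.60. The CDK subunits differed more between arms: CKS2 was at 219.9, 148, 196 and 129.6 CPM, with ratios of -0.75 without and -0.41 with QTP. CKS1B, the other such subunit in the list, was at 124, 85.1, 138 and 91.4 CPM, with ratios of -0.72 and -0.41. CDC25B, a phosphatase that activates CDK1, stood apart, at 11.5, 9.70, 19.3 and 17.7 CPM, with ratios of -0.41 and 0.06.

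CCNB2, the other B-type cyclin, was nearly absent from both libraries without QTP. Control held 0 of its UMIs and Radiation 1, against 354 for Drug (4.06 CPM) and 375 for Drug_Radiation (2.65 CPM). In Control the floor used here, 3 counts, is 0.335 CPM. Only 3 genes (CCNB2, COX14 and CLIC2) had at least 2 CPM in both QTP libraries and under 0.2 CPM in both others, and 0 genes had the reverse. A feature annotated on the same strand over the end of CCNB2, AC092757.2 on chromosome 15 from 59121034 to 59133250, had 280, 269, 2870 and 2159 UMIs, and its radiation ratios were -0.89 and -0.88. How reads were divided between the overlapping features was not tested, so no difference in CCNB2 is read from these counts.

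Of the centromere and kinetochore genes, which tie chromosomes to microtubules, CENPW was at 81.7, 44.2, 62.7 and 36.5 CPM. Its ratios were -1.05 (-1.22 to -0.91) without QTP and -0.58 (-0.66 to -0.55) with it. CENPN, which binds the centromeric nucleosome, was at 20.2, 10.6, 22.4 and 10.7 CPM, with ratios of -1.05 and -0.82. In 6 of the 7 genes of this group the level with QTP was at least 1.5-fold lower after radiation (0.851% of all genes). Without QTP it was so in 5 of 7 (6.08%). NUF2, part of the NDC80 complex, was at 12.9, 9.98, 14.5 and 5.88 CPM, with ratios of -0.52 and -0.99. CENPA, the centromeric histone, differed least, at 26.5, 25.3, 31.6 and 26.5 CPM, with ratios of -0.24 and -0.07. The gene SLC35F6 overlaps CENPA on the same strand and had 0, 0, 0 and 1 UMIs. How reads were divided between them was not tested, so the CENPA values may hold reads of SLC35F6.

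Checkpoint and anaphase-promoting genes were mixed. PTTG1, securin, was at 98.01, 62.9, 108.5 and 56.3 CPM, with ratios of -0.81 and -0.75. MAD2L1, the checkpoint protein MAD2, was at 82.8, 60.6, 68.3 and 38.5 CPM, and both ratios were -0.63. UBE2C, the ubiquitin-conjugating enzyme of the complex, was at 162, 111 and 139 CPM in Control, Radiation and Drug and at 102 in Drug_Radiation, with ratios of -0.72 and -0.27. CDC20, its activator, had the lower ratio with QTP, at 56.1, 53.0, 65.0 and 38.0 CPM, with ratios of -0.26 and -0.58. BUB3, which has roles outside mitosis, was at 112, 117, 161 and 126 CPM, with ratios of -0.12 and -0.16. BUB1B had 2 to 49 UMIs in each library and is not compared.

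The mitotic kinases and passenger proteins had a median of -0.48 without and -0.49 with QTP, relative to the 12108 genes. The medians of the 53 members were -0.54 and -0.65. BIRC5, survivin, was at 40.9, 31.0, 57.9 and 28.8 CPM, with ratios of -0.57 and -0.80. AURKB, the kinase of the passenger complex, was at 27.8, 24.7, 39.3 and 27.9 CPM, with ratios of -0.35 and -0.30. AURKA, a kinase of the spindle poles, was at 21.6, 14.3, 26.0 and 16.8 CPM, with ratios of -0.74 and -0.42. PLK1, a kinase needed for entry into mitosis, was at 12.7, 10.3, 19.4 and 11.4 CPM, with ratios of -0.46 and -0.54.

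Among the spindle genes KIF2C had the highest ratio without QTP. It was at 5.25, 7.19, 12.2 and 6.77 CPM; its ratio was 0.21 (-0.24 to 0.80) without QTP, an interval that holds 0, and -0.59 (-0.80 to -0.55) with it. Of the 11 spindle genes, 4 were at least 1.5-fold lower without QTP (6.08% of all genes) and 8 with it (0.851%). Each count is relative to the median of its own comparison, so the arms are not ordered by such counts. TPX2, which activates AURKA, was at 16.7, 13.7, 19.7 and 11.4 CPM, with ratios of -0.45 and -0.56. TACC3 was at 12.7, 10.95, 20.05 and 14.6 CPM, with ratios of -0.38 and -0.25, and CKAP2 at 18.4, 15.4, 24.2 and 14.8 CPM, with -0.43 and -0.49.

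In the cytokinesis group, 2 of 7 genes were at least 1.5-fold lower without QTP (6.08% of all genes) and 4 with it (0.851%). KIF20A, a kinesin of the midzone, was at 14.6, 11.3, 23.0 and 10.2 CPM, with ratios of -0.53 and -0.92, the latter the lowest among members past 20 CPM in that comparison. PRC1, which bundles midzone microtubules, was at 13.97, 13.7, 20.02 and 11.3 CPM, with ratios of -0.20 and -0.60. RACGAP1, part of centralspindlin, was at 15.1, 12.8, 21.0 and 11.1 CPM, with ratios of -0.40 and -0.69.

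Among chromosome proteins and other members, MKI67 had the lowest ratio without QTP of all 55, though at few UMIs (113 in Control and 78 in Radiation). It was at 12.6, 5.44, 13.2 and 6.79 CPM, with ratios of -1.26 (-1.83 to -0.97) and -0.69 (-0.91 to -0.66). HMGB2, a chromatin protein, was at 160.0, 122, 143 and 70.0 CPM, with ratios of -0.57 and -0.84. TOP2A, the topoisomerase that untangles chromosomes, was at 72.1, 44.3, 64.9 and 37.6 CPM, with -0.87 and -0.59. PRR11 was at 31.5, 17.2, 33.6 and 18.2 CPM, with -1.02 and -0.67. DEPDC1 was at 15.98, 8.79, 17.1 and 6.67 CPM, with -0.98 and -1.05. FOXM1, a transcription factor of these genes, was at 5.59, 3.84, 6.78 and 4.18 CPM, with -0.63 and -0.41. CDCA2 was at 6.03, 7.33, 13.9 and 7.49 CPM, with 0.06 and -0.63.

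The difference of the 2 radiation ratios, with QTP minus without, had a median of 0.06 over the 53 members with at least 10 UMIs in every library, but -0.07 relative to the median of the 12108 genes, and it was negative under 7 of 14 alternatives. So no direction is read from the median. With the first centring the counting interval lay above 0 for 10, below 0 for 9 and held 0 for 34, a split that rests on that centring. The split was not counted for all genes, so nothing particular to the members is read from it. CKS2 (0.34, 0.25 to 0.43), UBE2C (0.45, 0.35 to 0.56) and CENPW (0.47, 0.30 to 0.63) were among those above. KIF2C (-0.80, -1.31 to -0.28), CDC20 (-0.31, -0.48 to -0.14) and HMGB2 (-0.27, -0.37 to -0.16) were among those below. Members whose window held CHR letters had a median ratio of -0.72 (34 members) and those without -0.53 (9 members) without QTP, and both had -0.60 with QTP.

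With QTP alone the members lay nearer the median of all genes. In Drug against Control, which shares libraries with both radiation comparisons, 6 of 26 members (CENPW, CKS2, HMGB2, MAD2L1, TOP2A and UBE2C) were at least 1.5-fold lower, where 8.55% of all genes were, and 0 were 2-fold lower (3.59%). Over the 53 members these same 6 were lower (7.08%) and 2, CDCA2 and KIF2C, were higher (5.89%). The median of all genes was 0.50, so that most members were higher in unscaled CPM and lower relative to other genes. Without centring, 0 of the 26 members were at least 1.5-fold lower, a count for which no share of all genes is given.

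In Drug_Radiation against Radiation, 3 of 17 members (CDC20, HMGB2 and MAD2L1) were at least 1.5-fold lower (3.47% of all genes) and 0 were 2-fold lower (1.72%). Over the 53, the counts were 5 lower (3.92%) and 1 higher, CDC25B (4.06%). CDC25B was at 9.70 CPM in Radiation and 17.7 in Drug_Radiation, a relative ratio of 0.67 (0.49 to 0.99).

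The combination against Control held the lowest ratios. At least 1.5-fold lower were 17 of 20 members (8.54%) and 10 were at least 2-fold lower (3.15%): CCNB1, CDKN3, CENPN, CENPW, CKS2, HMGB2, MAD2L1, PRR11, PTTG1 and TOP2A. HMGB2 (-1.51), CENPW (-1.47), MAD2L1 (-1.41) and CDKN3 (-1.38) were lowest and BUB3 (-0.16) highest. Over the 53 members 44 were lower (7.93%) and 0 higher (7.07%).

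Depth moved with the member levels. From the shallowest to the deepest of 4 equal parts of the cells the summed level went from 1217 to 2208 CPM in Control, from 827 to 1639 in Radiation, from 1578 to 2352 in Drug and from 923 to 1339 in Drug_Radiation. In cells of matched depth the radiation difference stayed negative in all 10 windows, but its size varied. Without QTP the relative log2 ratio of the summed level was -1.27 at 1500 to 2500 UMIs, -0.84 at 2500 to 3500, -1.50 at 3500 to 5000, -1.15 at 5000 to 6500 and only -0.15 at 6500 to 15000, where Control had 173 cells. In that last window 0 of 19 members tested were at least 1.5-fold lower in Radiation against Control. The share of all genes in that window is not given, so this count is not set against other genes. With QTP the 5 windows from 6500 to 50000 UMIs gave -0.37 to -0.77. The part of depth in the results was not tested further.

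**Figure D4:**
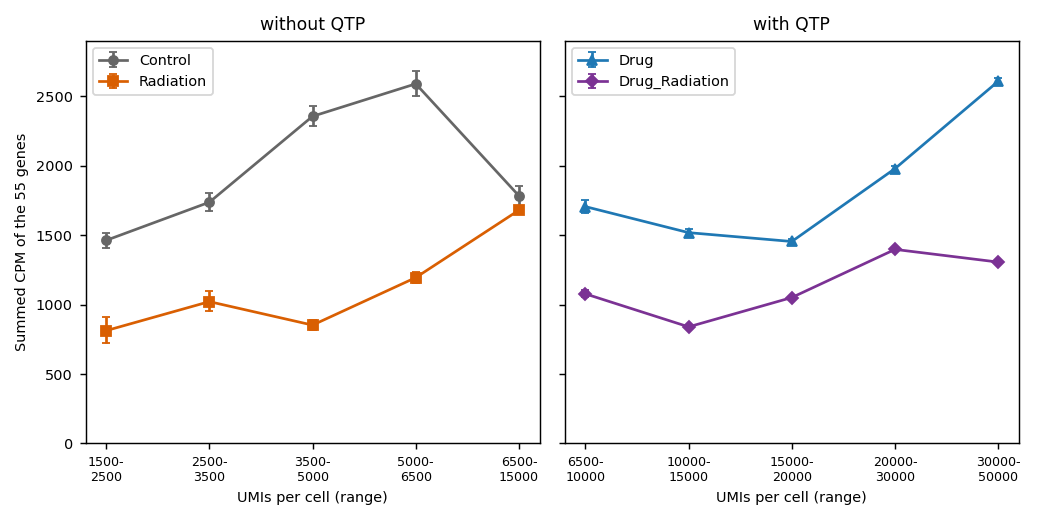
Summed CPM of the 55 genes in cells of the same range of UMIs, with exact 95% Poisson intervals, without QTP (left) and with QTP (right). The irradiated library is lower in each range, with 1680 against 1783 CPM in the deepest range without QTP.

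The members' UMIs were concentrated in few cells. With each cell thinned to 1000 UMIs, 50.6%, 45.6%, 58.3% and 48.4% of cells had at least 1 member UMI, and 3.801%, 2.06%, 4.66% and 1.56% had at least 10. The 10% of cells with the most held 57.5%, 60.3%, 56.0% and 54.9% of the member UMIs. In unthinned cells, 27.2%, 11.2%, 0.132% and 0.386% had none in the order of the libraries, the share being highest in the shallowest.

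To see where the difference lay, cells were ranked by 79 other G2 and mitosis genes, none of them a member. Those in which these genes made up at least 0.5% of 1000 UMIs formed an upper range, which is a range of a score and not a cell type. It held 4.52% of Control cells (3.83 to 5.30), 4.33% of Radiation (3.55 to 5.22), 8.21% of Drug (7.35 to 9.12) and 3.51% of Drug_Radiation (3.09 to 3.96). Within 0.1 percentage points of the limit lay 180, 109, 322 and 353 cells, so the limit cuts through many cells. The Drug library thus had the largest share, and the intervals of Control and Radiation overlapped. Much of the range rested on TUBB4B and JPT1, listed genes with high levels in every library. Without them the shares were 1.45%, 1.98%, 3.76% and 1.07%. Drug still had the largest share, and Radiation then lay above Control, with intervals that overlapped.

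Inside the range the members summed to 8479, 8045, 8535 and 7082 CPM, and outside it to 1463, 982, 1308 and 983 CPM. With this limit both were lower with radiation. Inside the range the direction without QTP turned under 2 of 5 other settings: with shares in unthinned cells Control was at 11081 and Radiation at 11479 CPM, and with a limit of 1% of UMIs, which left 2 and 10 cells, at 9278 and 11133 CPM. With QTP inside, and outside in both arms, the irradiated library was lower under all 5. The log2 ratio of the summed level, not centred, was -0.08 (-0.13 to -0.02) inside and -0.58 (-0.61 to -0.54) outside without QTP. With QTP it was -0.27 (-0.29 to -0.25) inside and -0.41 (-0.42 to -0.40) outside. Over all cells the median of all genes was 0.18 without QTP and -0.18 with it. Centring on these would lower the values without QTP and raise those with it, so the arms are not compared here. PLK1 was the member most concentrated in the range in all 4 libraries, 13.1-, 23.1-, 15.9- and 15.8-fold higher inside than outside. The median over members was 7.04-, 11.2-, 10.1- and 10.5-fold. CENPA, whose overlap with SLC35F6 is given above, was among the least concentrated, at 2.42-, 1.62-, 1.69- and 1.79-fold. BUB3 was at 1.97-, 1.97-, 1.88- and 1.85-fold. CDCA2 was lowest in Radiation, at 1.33-fold (0.521 to 2.84, from 7 UMIs inside). It was at 4.27-fold in Control (1.99 to 8.43) and 1.72-fold in Drug (1.46 to 2.01). CDC25B was 1.03-fold in Control, an interval of 0.370 to 2.33 from 6 UMIs inside.

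**Figure D5:**
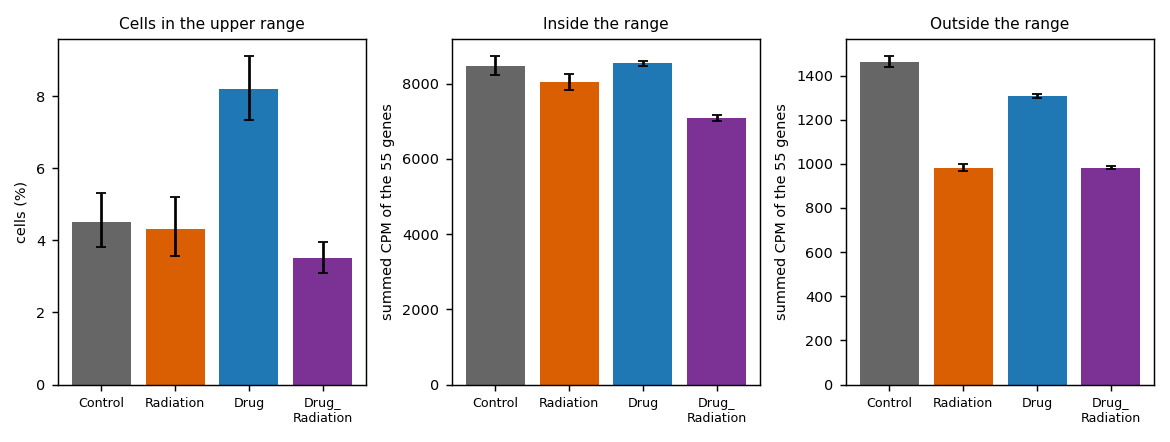
Share of cells in the upper range of other G2 and mitosis genes (left, with Clopper-Pearson intervals) and summed CPM of the 55 members inside (middle) and outside it (right, with Poisson intervals), all at 95%, by library. Radiation and Drug_Radiation are nearly level outside the range, at 982 and 983 CPM.

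The other genes of the pathway had medians nearer that of all genes. Of the 79 other G2 and mitosis genes, 74 had a mean of at least 2 CPM. In Radiation against Control 16 of these were at least 1.5-fold lower (6.08% of all genes) and 2 higher (7.24%), with a median of -0.26. In Drug_Radiation against Drug 19 were lower (0.851%) and 0 higher (1.48%), with a median of -0.39. Among those that reached 20 CPM in a compared library, relative to the median of all such genes, CENPC was lowest without QTP (-1.15) and CENPK with it (-0.77), and RANGAP1 was highest without QTP (1.13). Of 12 genes of the DREAM and MuvB complexes 0 were past 1.5-fold in either radiation comparison. For so few genes this is near the shares of all genes just given, so nothing is read from it. CDKN1A, the p53 target p21, was at 172, 393, 359 and 478 CPM in the order of the libraries.

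By annotation 21 members overlap another counted gene, 19 of them one on the opposite strand, and 12 have a named copy in GENCODE 29, none of which was counted. Whether the authors' counting used the strand is not given in the sources used here, so values of those 19 members are less certain. CCNB2, CENPA, CENPN and NUSAP1 overlap a counted feature on the same strand, which use of the strand would not separate. For CENPA that feature is SLC35F6, with 0, 0, 0 and 1 UMIs. How reads were divided there was not tested, so these values are less certain too.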

How the data were processed

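Single-cell 3′ RNA was measured in 4 libraries of MSTO-211H. The authors deposited whole-number UMI counts for each gene and cell barcode, not normalized. Per the labels' protocols a PIPseq V T2 kit was used, while another label names 10x Genomics. The build hg38 and the tool Seurat 4.3.3 come from the submitters' processing notes, which give neither a role. Aligner, annotation, strand and barcode calling: not given in the sources used here. Before any filter, the lowest deposited totals were 1009, 1592, 6427 and 6244 UMIs per barcode.

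Cells with at least 500 UMIs, 300 genes and under 20% mitochondrial UMIs were kept. No doublet caller was run. UMIs were summed per library and scaled to CPM of nuclear-encoded UMIs (8948054 to 141608005). Ratios are log2 of CPM plus 1, minus the median of the genes tested. Intervals at 95% are exact Poisson (CPM), exact conditional binomial (ratios, without the added 1 CPM, so not centred on low values) and Clopper-Pearson (shares); floors use 3 counts. PCR is handled by UMIs, and all intervals cover counting error only. With 1 library per group no test was made. The members and gene lists were chosen with earlier results of these data known. Named were the 3 members with most UMIs per role, the 4 highest and 4 lowest per comparison, members past 2-fold, members with radiation ratios on opposite sides and the 3 highest and 3 lowest of other lists; others, among them NUF2, PLK1, FOXM1, DEPDC1, CCNB2 and BUB1B, were named after values were seen. Alternatives included all barcodes, a stricter filter, thinning to 1000 UMIs, cells of 6500 to 15000 UMIs, equal weight per cell, TMM (edgeR 4.0.16) and median-of-ratios (DESeq2 1.42.0) scaling, other added CPM and minimum CPM. A list of G1 and S phase genes is not reported here. The method was tested on simulated data. Python 3.11.15, numpy 2.4.6, scipy 1.17.1, pandas 2.3.3 and R 4.3.3 were used.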

Additional observations from a re-analysis of the deposited data

Results flagged for a closer look

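CDC25B, KIF2C and CDCA2 had radiation ratios on opposite sides of the median of all genes without and with QTP, and the difference was not tested because each group is 1 library. The difference, with QTP minus without, was 0.46 for CDC25B, -0.80 for KIF2C and -0.70 for CDCA2. In each case the ratio on the positive side had a counting interval that held 0.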

How the results depend on the processing

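The counts of members at least 1.5-fold lower moved with the filter and the centring, and the direction of the median did not change for either radiation comparison under any of 14 alternatives. In Radiation against Control 14 of 20 members tested were lower. The count was 0 of 19 in cells of 6500 to 15000 UMIs and 6 of 20 without centring. With a minimum of 5 CPM it was 26 of 50. With a mean of at least 2 CPM, chosen after the data had been seen, it was 24 of 53. Both lower minimums thus gave more members but a smaller share of those tested. In Drug_Radiation against Drug the count of 13 of 26 became 8 of 23 with cells thinned to 1000 UMIs and 21 of 26 without centring. It was 36 of 52 with 5 CPM, 41 of 55 with no minimum and 37 of 53 with a mean of at least 2 CPM. With 5 CPM added it was 7 of 26. In Drug against Control the count of 6 of 26 became 3 of 21 with TMM scaling. It was 0 of 26 without centring and 0 of 55 with no minimum, and the median changed sign under 2 of 14 alternatives. In Drug_Radiation against Radiation the count of 3 of 17 became 1 of 16 with thinned cells. It was 16 of 19 in cells of 6500 to 15000 UMIs and 5 of 53 with a mean of at least 2 CPM. In Drug_Radiation against Control the count of 17 of 20 became 41 of 50 with 5 CPM and 44 of 53 with a mean of at least 2 CPM. Shares of all genes are given above only for the main filter and the mean of at least 2 CPM. Counts under the other settings thus do not show whether the members moved apart from other genes. Of single values that changed sign past 1.5-fold, CCNB1 in Radiation against Control went to 0.30 in cells of 6500 to 15000 UMIs. The median difference of the radiation ratios, 0.06, was negative under 7 of 14 alternatives: -0.49 in those cells, -0.30 without centring, -0.04 with TMM, -0.08 with median-of-ratios scaling, -0.04 with 5 CPM, -0.23 with no minimum and -0.07 with a mean of at least 2 CPM. The cause was not tested, except that other filters test other genes. The share of cells in the upper range and the fold inside over outside followed the limit, in the order Control, Radiation, Drug, Drug_Radiation. At 0.3% of UMIs the shares were 15.7%, 14.8%, 23.7% and 15.6% and the folds 5.13, 6.71, 4.77 and 4.04. At 1% they were 0.0628%, 0.412%, 0.947% and 0.186%, with folds of 5.01, 8.57, 6.65 and 8.19. With 2000 UMIs per cell, shares of Radiation, Drug and Drug_Radiation were 3.33%, 6.97% and 2.32%, and folds 6.54, 10.1, 8.31 and 8.68. That setting left out 1249 Control and 80 Radiation cells with fewer UMIs, and 0 cells of Drug and Drug_Radiation. Its Control and Radiation values thus come from the deeper cells. In unthinned cells shares were 2.36%, 2.64%, 5.47% and 1.63%, and folds 6.88, 11.2, 9.49 and 11.1. TUBB4B and JPT1 were left out, after the data had been seen, because their levels were high in every library. Without them shares were 1.45%, 1.98%, 3.76% and 1.07%. Folds of Control, Radiation and Drug_Radiation were then 5.56, 7.79 and 7.63. Drug had the largest share under each of these settings. No paired analysis was possible because each group has 1 library. Depth limits Control and Radiation most: genes under 0.335 CPM in Control and 0.209 in Radiation lie below the floor of 3 counts used here.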
